A study of Mus musculus with 6 samples.

Results

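Many genes produce messenger RNAs with different last exons. The set described here holds 836 such transcript ends in 382 genes of mouse DN3 thymocytes. An end is an alternative last exon, which the deposited tables define by the splice acceptor where that exon begins. An end was kept where its mean over the 6 libraries reached 2 FPKM (fragments scaled to exon length and to library size), and a gene where it had at least 2 such ends. The mean over all libraries, Hspa9 cKO and WT together, therefore chose the members, and their height is no finding. The tables list 16025 ends in all, of which 15421 carry a gene ID, in 10797 genes; 2707 of these genes list 2 or more ends at any level. The kept ends hold 10.8% of all FPKM assigned to ends. Of the 382 genes, 321 had 2 kept ends, 51 had 3, 9 had 4 and 1 had 5.

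RNA sequencing was done on 3 Hspa9 cKO libraries and 3 WT libraries of thymocytes at the DN3 stage, sorted as lineage-negative cells without CD4, CD8 and CD44 and with CD25. All mice were 5 weeks old and untreated. Hspa9 encodes GRP75 (mortalin), an HSP70-type chaperone found in the matrix of mitochondria, and cKO stands for a conditional knockout. The Cre driver, the floxed allele, the strain and how many animals stand behind a library were not stated in the labels. The p-values below therefore rest on library-to-library spread, part of which may be technical. In bulk RNA, fewer cells of a type and less RNA per cell cannot be told apart.

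A transcript ends where the nascent RNA is cleaved and polyadenylated, usually a short way downstream of a hexamer such as AATAAA. A gene has alternative last exons when splicing can join an upstream exon to more than one acceptor that is followed by a cleavage site, or when a cleavage site inside an intron is used before that intron is removed. Such ends change the C terminus of the protein, the 3′ untranslated region or both, and some of the resulting RNAs hold a retained intron or a premature stop and are open to nonsense-mediated decay. Activated and dividing T cells are known for a shift to proximal cleavage sites. Within a gene, proximal here means the kept end least far downstream and distal the one farthest downstream; where 3′ edges coincide the acceptors set the order, and ends on opposite strands have none.

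The leading pair of ends, the 2 with the highest means, lay in separate last exons in 260 genes. The pair shared its 3′ edge and differed by the acceptor in 62 genes, and overlapped with different edges in 45, while the remaining 15 genes had kept ends on both strands. Between separate last exons the 3′ edges were 5027.5 nucleotides apart in the median, with a range of 113 to 219165. Against the GENCODE M21 annotation of the same genome build, 666 of 836 kept ends began at an annotated acceptor of their gene and 589 equalled an annotated last exon. Of these 589, 378 belong to protein-coding transcripts, 131 to retained-intron transcripts, 42 to processed transcripts and 30 to transcripts marked for nonsense-mediated decay. Last exons were 484 nucleotides long in the median at proximal ends, 521 at middle ends and 777 at distal ends. The acceptor of the principal isoform's last exon marked 216 of 367 distal ends, 87 of 367 proximal ends and 13 of 69 middle ends.

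The junctions that define the ends in the genes with the clearest values are shown here, because each end in the tables is named by the acceptor they contain. Each run gives the last 15 bases of the upstream exon in lower case and the first 15 bases of the last exon in capitals, 5′ to 3′ along the transcript, from the GENCODE M21 transcripts (GRCm38). The Cdc26 and Cdk5rap2 ends lie on the minus strand of chromosome 4, the Eed ends on the minus strand of chromosome 7, the 1110051M20Rik ends on the minus strand of chromosome 2 and the Zfp655 ends on the plus strand of chromosome 5.
Cdc26 distal, chr4:62383654-62384538: tgaaaggcggcaaagTGCCCATGGAGGCCA
Cdc26 proximal, chr4:62394583-62395021: cgcaaggacctggagGCCCGTAAGAAGCAG
Cdk5rap2 distal, chr4:70216856-70223114: aggggaaacctggagCTCAGGCCTGGGGCC
Cdk5rap2 proximal, chr4:70314961-70315464: gacctgctgcttcagAAATCCAATGAAAAA
Eed distal, chr7:89954654-89955063: tcctcataaagccaaATGCACAACACTGAC
Eed middle, chr7:89955974-89956413: ttgatactttccaagTCTTGTGAAAATGCC
1110051M20Rik distal, chr2:91275068-91277134: agagctggaacggctGGTGGTGAGGTCGAG
1110051M20Rik proximal, chr2:91277830-91278957: agagctggaacggctGCTGGTCCAGGTCCC
Zfp655 proximal, chr5:145237050-145238322: acgtggtctcactggGCATACTTCTCCGCC
Zfp655 distal, chr5:145243575-145247302: gaggtgactgttcagATGGAGAGACCAGAG
In 1110051M20Rik both last exons are joined to the same upstream exon, so the lower-case bases are identical. The Cdc26 distal last exon is joined to an exon that starts at the proximal acceptor and runs past the proximal end.

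A test of the balance between the ends of a gene called 5 member genes, Cdc26, Cdk5rap2, Eed, 1110051M20Rik and Dynlt1b. Each of them has an end that reached the 2 FPKM mean only through the group where it is high, so their calls are given as a description and support nothing about the set. With 2 FPKM required in each group, limma called 0 of 589 ends in usage, in 280 genes; 24 of them had an unadjusted p under 0.05, and the lowest adjusted p was 0.0668, for the Eed distal end. The tested value, called end usage here, is log2 of the end over all other ends of its gene, each with 1 FPKM added, in Hspa9 cKO minus WT. It was fitted with limma over the 4822 ends of all genes with 2 or more ends that passed a filter on low values, and an end was called at a Benjamini-Hochberg adjusted p under 0.05. Of 833 member ends tested, 8 were called, in these 5 genes; over all ends tested 20 were called (0.415%). At an unadjusted p under 0.05 stood 7.20% of the member ends and 11.3% of all ends tested. The distal share was higher in Hspa9 cKO in Cdc26, Cdk5rap2 and Eed, and the proximal share in 1110051M20Rik. The size of these changes depends on the 1 FPKM added, since 1 end of the gene is near or at 0 in a group. With 0.1 FPKM added it was 9.98 in place of 6.54 for Cdc26, -5.245 in place of -3.10 for Cdk5rap2, -5.94 in place of -3.68 for Eed and 8.77 in place of 5.48 for Dynlt1b (log2), and each of these calls still passed.

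Cdc26 encodes a small subunit of the anaphase-promoting complex, the ubiquitin ligase that drives the exit from mitosis. Its proximal end, which is the coding last exon of the principal isoform, had 2.87, 6.88 and 4.26 FPKM in the 3 Hspa9 cKO libraries, given in the order of their replicate numbers here and below, against 49.0, 45.6 and 46.1 FPKM in the 3 WT libraries. Its distal end, an exon known from a transcript marked for nonsense-mediated decay, stood at 9.04, 8.78 and 10.9 FPKM in Hspa9 cKO and was listed in none of the WT libraries. The groups did not overlap at either end, and the distal end held 75.9%, 56.1% and 71.9% of the gene's end FPKM in Hspa9 cKO, against 0% in each WT library. Usage of the distal end rose by 6.54 (log2, SE 0.41, limma adjusted p = 0.00545), and the level of the proximal end fell by 3.14 (log2 of FPKM + 1, limma adjusted p = 0.00311). The summed starts of the gene equal its summed ends in every library and so repeat the same FPKM, at 11.9, 15.7 and 15.2 FPKM in Hspa9 cKO, against 49.0, 45.6 and 46.1 FPKM in WT (log2 change -1.66, limma adjusted p = 0.00139). Left without WT replicate 1 the distal usage had a limma adjusted p of 0.0704, and without WT replicate 2 of 0.0502.

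Cdk5rap2 encodes a centrosomal protein that recruits gamma-tubulin rings, and it lies 7.81 Mb from Cdc26 on chromosome 4. The distal end, the coding last exon of the principal isoform with 37 exons, stood at 8.14, 7.45 and 7.89 FPKM in Hspa9 cKO and was listed in no WT library. The proximal end starts at the acceptor of exon 14, runs into the following intron and equals no annotated last exon. It stood at 5.42, 5.61 and 4.92 FPKM in Hspa9 cKO and at 6.10, 6.83 and 3.95 FPKM in WT, so here the groups overlapped. Its share of the gene's ends was 39.4%, 39.9% and 36.8% in Hspa9 cKO, against 98.0%, 98.6% and 95.8% in WT, and its usage fell by 3.10 (log2, SE 0.38, limma adjusted p = 0.0351). The level of the proximal end changed by only -0.04 (log2, limma adjusted p = 0.901), so it was the distal end whose level differed. The summed starts were 5.42, 5.61 and 4.92 FPKM in Hspa9 cKO and 6.66, 6.83 and 3.95 FPKM in WT (limma adjusted p = 0.814), so no listed start carries the FPKM of the distal end. The usage call did not pass in any of the 6 fits that leave out 1 library (limma adjusted p = 0.0632 to 0.147).

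Eed encodes the subunit of Polycomb repressive complex 2 that binds trimethylated lysine on histone H3 and stimulates the methyltransferase. It has 4 kept ends, of which the distal one is the coding last exon of the principal isoform and the other ones are last exons of retained-intron transcripts. The middle end at chr7:89955974-89956413 stood at 0.110, 0.109 and 0.144 FPKM in Hspa9 cKO, against 14.2, 17.1 and 18.2 FPKM in WT. It held 0.552%, 0.502% and 0.650% of the gene's end FPKM in Hspa9 cKO and 32.1%, 39.9% and 44.9% in WT, and its usage fell by 3.68 (log2, SE 0.38, limma adjusted p = 0.0241). Unlike in Cdc26 and Cdk5rap2, this end was listed in all 6 libraries.

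The other middle end of Eed, at chr7:89964594-89964862, had 2.60, 2.93 and 1.92 FPKM in Hspa9 cKO, against 9.43, 10.2 and 7.57 FPKM in WT (log2 change -1.53, limma adjusted p = 0.00614). The distal end had 12.8, 13.1 and 13.4 FPKM in Hspa9 cKO, against 7.44, 8.82 and 8.34 FPKM in WT, and its level rose by 0.62 (log2, limma adjusted p = 0.0111; 0.051 without Hspa9 cKO replicate 3). The distal share was 64.5%, 60.1% and 60.4% in Hspa9 cKO, against 16.8%, 20.6% and 20.5% in WT, while the test of distal usage missed the threshold (log2 change 2.57, limma adjusted p = 0.0668). The proximal end overlapped between groups, at 4.35, 5.65 and 6.73 FPKM in Hspa9 cKO and 13.2, 6.65 and 6.46 FPKM in WT. In sum the starts of Eed were lower in Hspa9 cKO, at 17.3, 18.8 and 20.3 FPKM, against 37.7, 35.6 and 35.9 FPKM in WT (log2 change -0.92, limma adjusted p = 0.00299). The usage call of the middle end passed in none of the 6 fits that leave out 1 library (limma adjusted p = 0.0632 to 0.108), whereas the level of that end passed in all of them (highest limma adjusted p = 0.00592).

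The fourth gene, 1110051M20Rik, is a protein-coding gene without an assigned name. Its distal end was listed in no Hspa9 cKO library and stood at 6.99, 4.75 and 5.48 FPKM in WT. Its proximal end, which belongs to the principal isoform, had 3.82, 4.11 and 4.68 FPKM in Hspa9 cKO, against 1.30, 0.0032 and 2.38 FPKM in WT. Both last exons hold coding sequence, so the pair gives different C termini in the annotation. Usage of the distal end fell by 4.16 (log2, SE 0.45, limma adjusted p = 0.0292) and usage of the proximal end rose by 3.86 (limma adjusted p = 0.0351). Without any single library other than WT replicate 3 the distal call was lost (limma adjusted p = 0.0757 to 0.13), and the summed starts of the gene did not pass (limma adjusted p = 0.143). The distal call also ended with 0.1 FPKM added, where the change was -8.39 (limma adjusted p = 0.107), and with the rest of the gene taken from kept ends only (limma adjusted p = 0.296).

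Dynlt1b, a light chain of cytoplasmic dynein, was called through an end that lies outside the annotated gene. That middle end, at chr17:6439926-6440480 on the plus strand, stood at 8.75, 12.4 and 13.7 FPKM in Hspa9 cKO and was listed in no WT library (usage change 5.48, SE 0.56, limma adjusted p = 0.0241). It overlaps the annotated gene Gm26848 on the same strand, so reads of the 2 genes cannot be told apart there. The coding proximal end had 5.86, 7.24 and 3.68 FPKM in Hspa9 cKO, against 61.5, 59.3 and 11.0 FPKM in WT, and did not pass in usage (limma adjusted p = 0.345). WT replicate 3 stood apart from the other WT libraries at this end. The middle end's call was lost without any library other than WT replicate 3 (limma adjusted p = 0.0823 to 0.119).

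**Figure D1:**
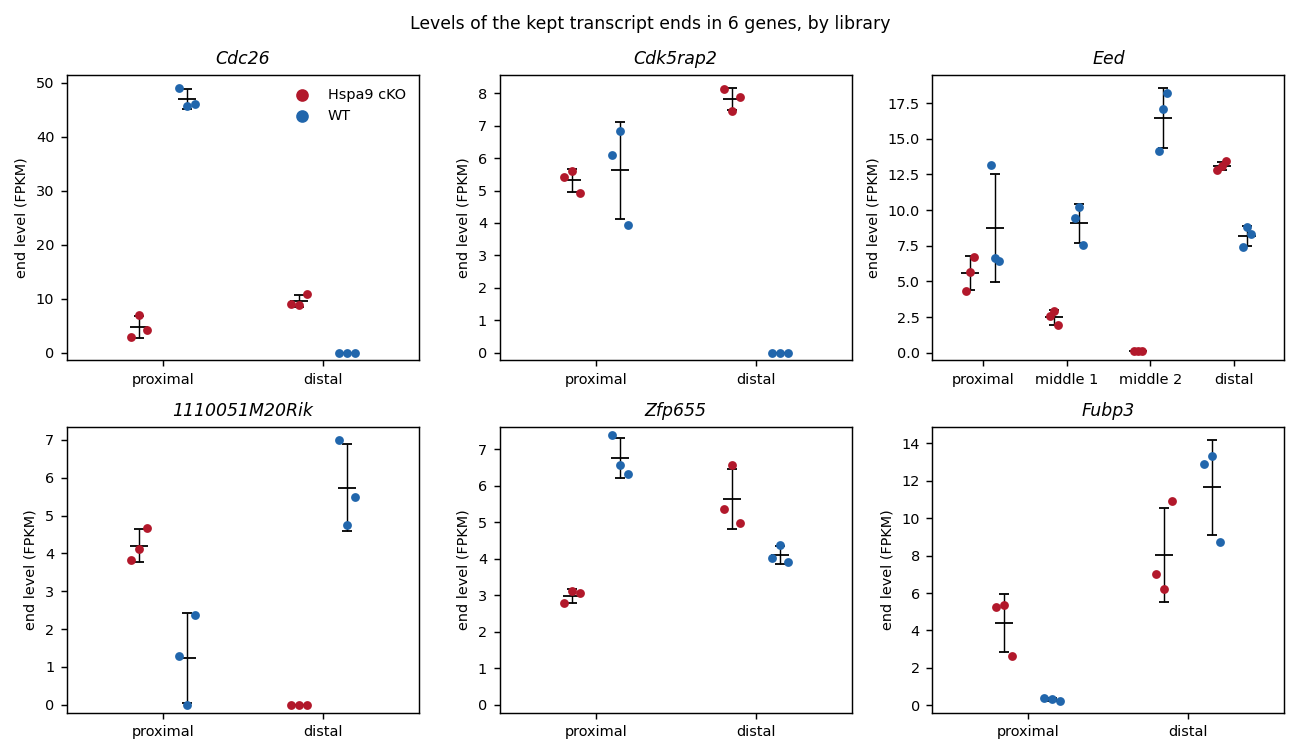
Level of each kept end (vertical axis, FPKM) by library in 6 genes, with the ends ordered from proximal to distal and Hspa9 cKO (red) left of WT (blue); bars give mean and SD, n = 3. The distal ends of Cdc26 and Cdk5rap2 lie at 0 in all WT libraries, the second middle end of Eed lies under 0.15 FPKM in all Hspa9 cKO libraries, and the proximal end of Zfp655 separates the groups with both of them well above 0.

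All 5 called genes had an end whose mean was under 2 FPKM in one of the groups. Of the 836 kept ends, 147 had such a group: 60 were under 2 FPKM in Hspa9 cKO and 87 in WT. In 19 kept ends no Hspa9 cKO library listed the end, and in 22 no WT library did. An end that is not listed was set to 0, which can be a failed estimate, since Gapdh had no listed end in any of the 6 libraries.

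Without the test, the shares themselves did not overlap between the groups at 125 of 836 kept ends, in 76 genes; the same held at 12.4% of the ends and in 18.0% of the genes tested in usage. Of the 125 ends, 64 had the higher share in Hspa9 cKO and 61 in WT. The difference reached 10 percentage points at 83 of them, 20 points at 50 and 50 points at 10. Where both groups averaged at least 2 FPKM, 95 of 689 ends (13.8%) had shares without overlap. For a single end with shares apart, the exact two-sided permutation test gives p = 0.1, the smallest that 3 against 3 libraries allow. By structure, an end without overlap occurred in 49 of 260 genes with separate last exons (18.8%), in 16 of 62 with a common 3′ edge (25.8%), in 9 of 45 with overlapping last exons (20.0%) and in 2 of 15 with ends on both strands (13.3%).

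The share of an end varied widely between libraries of the same group. The SD of the share was 6.70 percentage points in Hspa9 cKO and 7.59 points in WT in the median over ends, and the median absolute difference between groups was 6.27 points. Between the 3 Hspa9 cKO libraries the share ranged over more than 50 points at 105 ends, and between the 3 WT libraries at 89 ends. Cap1, which regulates actin turnover, is an example: its minus-strand end held 99.8%, 34.7% and 32.8% of the end FPKM in Hspa9 cKO and 97.4%, 97.9% and 37.1% in WT. High and low values of this end thus occurred in both groups. Cap1 has kept ends on both strands, so this share sets ends on opposite strands against each other.

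**Figure D2:**
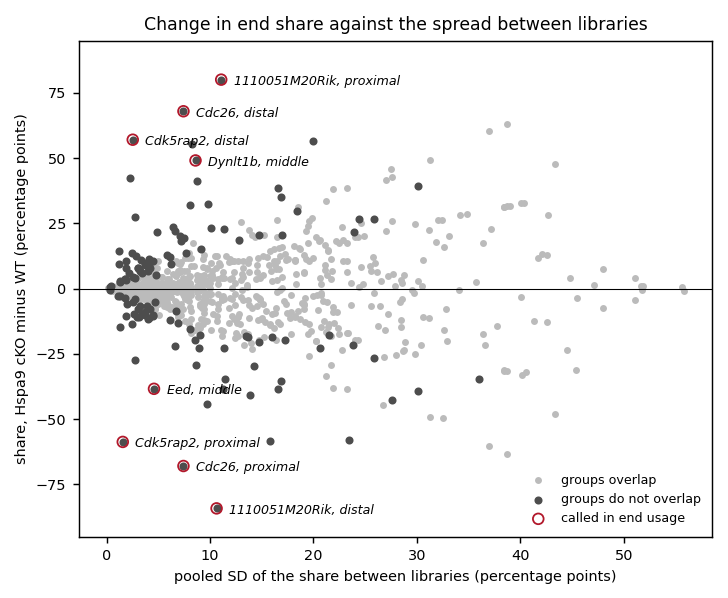
Difference in share of each kept end, Hspa9 cKO minus WT (vertical axis, percentage points), against the pooled SD of the share between libraries (horizontal axis, percentage points); dark points have shares that do not overlap and red circles mark the 8 ends called in usage. The called ends lie at differences of 38 points or more in either direction, while many grey ends differ by as much between groups as libraries of 1 group differ among themselves.

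Another 20 genes, chosen by the size of a share difference without overlap, are given as values only, since none passed the usage test. The difference was steady between libraries in some of them. Zfp655, a zinc finger protein gene, had a proximal share of 34.0%, 32.1% and 38.0% in Hspa9 cKO, against 64.8%, 60.0% and 61.8% in WT. The proximal end itself stood at 2.77, 3.11 and 3.06 FPKM in Hspa9 cKO and at 7.39, 6.57 and 6.33 FPKM in WT. Both ends were listed in all libraries and both are coding, the distal one in the principal isoform. Usage of the proximal end changed by -1.34 (log2, SE 0.34, limma adjusted p = 0.279), and its level fell by 0.96 (log2, limma adjusted p = 0.00604).

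Fubp3 encodes a single-stranded nucleic acid binding protein of the FUSE-binding family. Its proximal end starts at the acceptor of the exon before the last and runs through the last intron, so that the last exons overlap. That end had 5.25, 5.37 and 2.62 FPKM in Hspa9 cKO, against 0.367, 0.313 and 0.236 FPKM in WT, and its level rose by 2.01 (log2, limma adjusted p = 0.00938). It is a member only through Hspa9 cKO, the group where it is high, so this rise is a description. The distal end held 51.8%, 53.7% and 80.7% of the end FPKM in Hspa9 cKO and 96.8%, 97.7% and 95.5% in WT; the usage test did not pass (log2 change -2.51, limma adjusted p = 0.212). The junctions into the 2 acceptors, in the same notation as above, are on the plus strand of chromosome 2.
Fubp3 proximal, chr2:31615498-31617519: attacaaaaagcagaGTCATCCCACCAGTG
Fubp3 distal, chr2:31616179-31617526: caggcccacagccagGAGCAGTAGATGGGC

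Ensa, a phosphatase inhibitor that acts on PP2A in mitosis, has 2 coding last exons with the same 3′ edge. The shorter one, counted as distal because its acceptor lies downstream, had 17.9, 14.5 and 15.6 FPKM in Hspa9 cKO, against 9.91, 7.44 and 7.63 FPKM in WT (level change 0.87, log2, limma adjusted p = 0.016; over 0.05 without Hspa9 cKO replicate 1, Hspa9 cKO replicate 3 or WT replicate 3, at most 0.061). Its share was 84.7%, 99.6% and 93.3% in Hspa9 cKO and 61.9%, 48.9% and 42.5% in WT. The starts of Ensa, summed, were 21.2, 14.6 and 16.7 FPKM in Hspa9 cKO and 16.0, 15.2 and 17.9 FPKM in WT (limma adjusted p = 0.763), so the groups overlapped there.

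Chd3, a chromatin remodelling ATPase of the NuRD complex, had a distal share of 73.1%, 81.0% and 67.9% in Hspa9 cKO, against 52.6%, 54.1% and 49.9% in WT. Its retained-intron proximal end was listed in WT replicates 1 and 3 only, at 21.9 and 23.3 FPKM. Chd1, another remodeller, had an unannotated proximal end at 1.58 FPKM in Hspa9 cKO replicate 1 and unlisted in the other Hspa9 cKO libraries, against 2.79, 11.4 and 7.91 FPKM in WT. Luc7l2, which encodes a protein of the U1 small nuclear ribonucleoprotein, had a distal share of 45.6%, 57.8% and 44.8% in Hspa9 cKO and 33.8%, 25.6% and 22.5% in WT. The limma adjusted p of usage was 0.349 for Chd3, 0.298 for Chd1 and 0.399 for Luc7l2.

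In other genes 1 or 2 libraries carried most of the difference. Hnrnpa1, an abundant splicing regulator, had 2.10, 21.5 and 1.29 FPKM at its distal end in Hspa9 cKO, against 47.8, 22.5 and 356 FPKM in WT, where replicate 3 stood apart. Hnrnpa1 has many processed pseudogenes, and how the authors' software divided such reads was not stated. Drg1, a GTP-binding protein gene, had a coding proximal end at 1.19, 54.5 and 53.3 FPKM in Hspa9 cKO and 57.3, 45.0 and 58.8 FPKM in WT. In Hspa9 cKO replicate 1 the missing FPKM stood at an unannotated middle end, at 39.7 FPKM, which no other library listed. Idh3g, a subunit of mitochondrial isocitrate dehydrogenase, showed the same kind of switch: its retained-intron middle end stood at 0.214, 0.0558 and 49.6 FPKM in Hspa9 cKO and under 0.1 FPKM in each WT library. The proximal end of Idh3g was called higher in level in Hspa9 cKO (log2 change 1.53, limma adjusted p = 0.0122). That call was lost without Hspa9 cKO replicate 1 or Hspa9 cKO replicate 3 (limma adjusted p at most 0.0537).

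Rad50, part of the complex that senses DNA double-strand breaks, had its distal end at 6.49, 6.01 and 8.04 FPKM in Hspa9 cKO, against 4.15 FPKM in WT replicate 1 and no listing in WT replicates 2 and 3. Acin1, a factor bound to spliced RNA, had a distal retained-intron end of 65 nucleotides at 0.0486, 0.554 and 0.0524 FPKM in Hspa9 cKO, against 3.70, 41.0 and 24.5 FPKM in WT. The usage test gave a limma adjusted p of 0.127 for both. Zc3hav1, the zinc finger antiviral protein, is known for a short and a long form with different C termini, which these coding ends separate. Its proximal end had 6.94, 0.481 and 8.13 FPKM in Hspa9 cKO, against 18.8, 7.48 and 17.9 FPKM in WT (usage change -2.38, log2, limma adjusted p = 0.424), and replicate 2 was the lowest of each group.

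The remaining value-only genes were Cast, Vwce, Pag1, Tmem208, Pop4, H2-T10, Apbb3, Armc8 and the already described Idh3g. Cast, the calpain inhibitor, had a retained-intron proximal end at 6.55, 6.17 and 8.44 FPKM in Hspa9 cKO, against 4.14, 2.41 and 0.695 FPKM in WT. Vwce had an end known from a transcript marked for decay at 3.11, 2.95 and 7.89 FPKM in Hspa9 cKO and unlisted in WT. Its level change was 2.39 (log2, limma adjusted p = 0.0132, and 0.0514 without WT replicate 1). This end is a member only through Hspa9 cKO, so its rise is a description. Pop4, a subunit of RNase P, owed its difference to WT replicate 1, whose proximal end stood at 12.9 FPKM against at most 0.231 FPKM elsewhere. Pag1, an adaptor that binds the kinase Csk at the membrane, had 52.0, 52.5 and 51.6 FPKM at its coding end in Hspa9 cKO, against 22.7, 41.0 and 21.5 FPKM in WT, with other ends listed in WT replicates 1 and 3 only. Tmem208, a membrane protein of the endoplasmic reticulum, had a proximal share of 67.8%, 1.897% and 61.9% in Hspa9 cKO, against 70.4%, 68.2% and 72.9% in WT, with Hspa9 cKO replicate 2 apart from all others. Apbb3 had a distal share of 89.8%, 71.4% and 89.5% in Hspa9 cKO and 69.6%, 50.3% and 60.6% in WT, and Armc8, a subunit of the CTLH ubiquitin ligase, one of 50.5%, 47.2% and 59.5% in Hspa9 cKO and 43.5%, 14.1% and 31.6% in WT; the groups of neither gene overlapped. H2-T10 is an MHC class Ib gene that the annotation marks as a polymorphic pseudogene. Its reads may be shared with near-identical family members, so its proximal share of 34.6%, 32.3% and 27.2% in Hspa9 cKO, against 0%, 6.50% and 16.3% in WT, is uncertain.

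**Figure D3:**
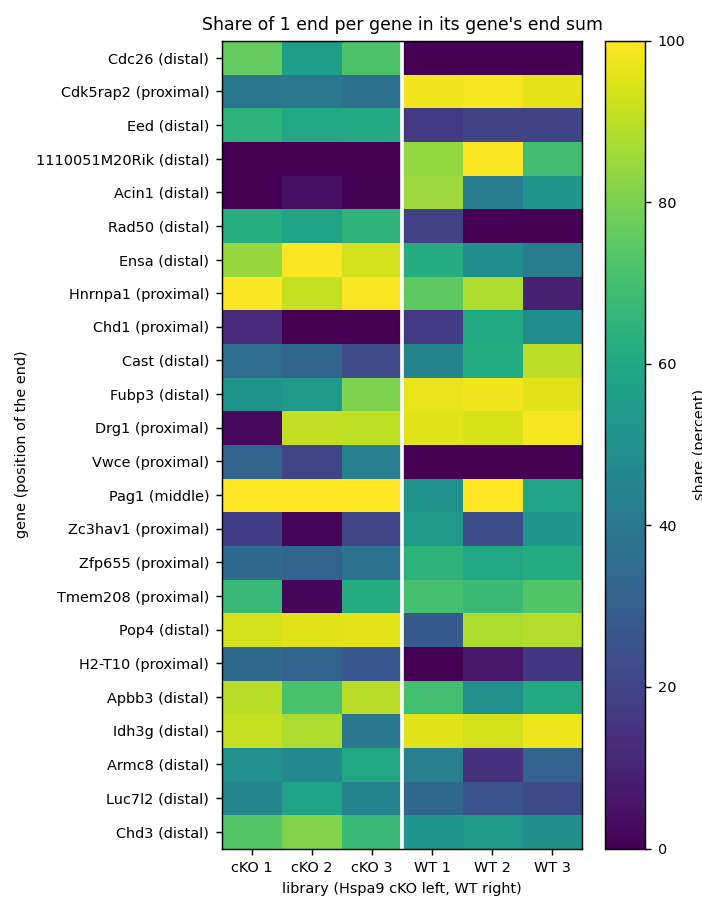
Share of 1 end in its gene's end FPKM (colour, percent) for 24 genes, 4 called genes on top and 20 value-only genes in order of their share difference, with the 3 Hspa9 cKO libraries left of the 3 WT libraries. Cdk5rap2, Eed and Zfp655 are even within each group, whereas Hnrnpa1, Drg1, Tmem208, Pop4 and Idh3g hold 1 library that differs from the rest of its group.

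The distal end gained share in about as many genes as it lost share. An end is defined by its acceptor, so cleavage sites behind the same acceptor are not told apart. The genes counted here also include those whose ends share the 3′ edge. A shift between cleavage sites within a last exon was therefore not tested. The most distal kept end had the higher share in Hspa9 cKO in 185 of the 366 genes with a share in every library and the lower share in 181, with a median difference of 0.216 percentage points. The median distal share over genes was 62.4%, 63.8% and 63.6% in Hspa9 cKO and 64.4%, 61.2% and 63.8% in WT, so the libraries of the groups interleave. Among genes whose distal shares did not overlap between groups, 34 were higher and 23 lower in Hspa9 cKO. The levels of the proximal and the distal end changed in the same direction in 166 of 367 genes and in opposite directions in 200, of which 100 went each way.

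**Figure D4:**
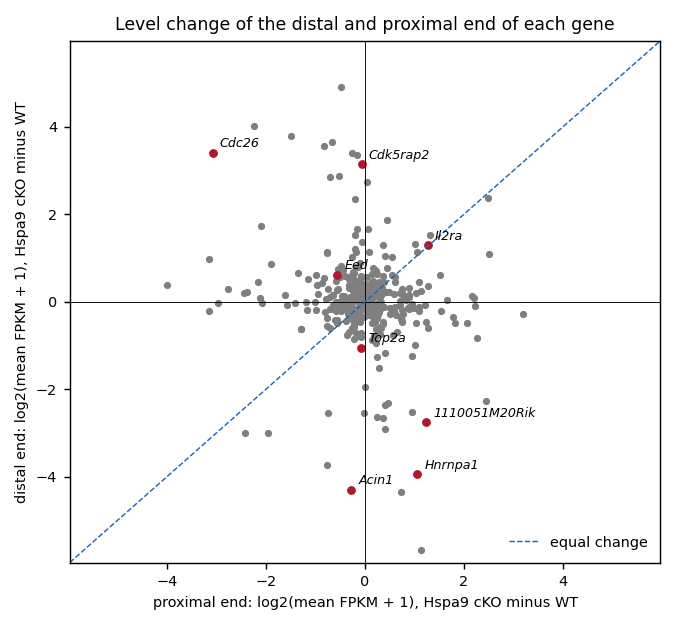
Change of the distal end (vertical axis) against that of the proximal end (horizontal axis) of 367 genes, each as log2 of mean FPKM + 1 in Hspa9 cKO minus WT; the dashed line marks equal change and 8 genes are named in red. Il2ra lies near the line with both ends up, Cdc26 lies in the corner with the distal end up and the proximal end down, and 1110051M20Rik in the opposite corner.

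The level of single ends was tested apart from usage. Of 768 member ends tested on log2(FPKM + 1), 51 were called with limma, 30 higher and 21 lower in Hspa9 cKO, in 46 genes. Over all 7730 ends tested, 11.8% were called, 6.55% as higher and 5.27% as lower, so the member share lies under the background. Only 18 of the 51 ends were called in all 6 fits that leave out 1 library. Among them are the ends of Il2ra, Top2a, Mki67, Ctse, Cd37 and Prmt1 given here. Some of the 18 averaged under 2 FPKM in 1 group and are members only through the group where they are high. These include ends of Cdc26, Cdk5rap2, Eed, 1110051M20Rik, Dynlt1b, Fubp3, Prmt1 and Cd37. The counts of level calls contain such ends, whose calls are a description.

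Of the 4 member genes on the cell cycle list, Top2a and Mki67 had a main end called lower in level in all fits that leave out 1 library. Top2a, the topoisomerase of replicating cells, had a distal end at 36.3, 36.7 and 37.7 FPKM in Hspa9 cKO, against 78.0, 80.7 and 74.8 FPKM in WT (log2 change -1.06, SE 0.05, limma adjusted p = 0.000812). Its proximal end, which shares the 3′ edge, was at 18.5, 12.3 and 12.6 FPKM in Hspa9 cKO and at 11.9, 16.9 and 17.5 FPKM in WT, with overlapping groups (limma adjusted p = 0.813). The distal share was accordingly 65.7%, 73.9% and 74.2% in Hspa9 cKO, against 86.0%, 81.9% and 80.4% in WT, and its usage did not pass (log2 change -0.94, limma adjusted p = 0.451). Mki67, the proliferation antigen Ki-67, had its main end at 24.4, 25.1 and 24.7 FPKM in Hspa9 cKO, against 44.1, 43.4 and 38.1 FPKM in WT (log2 change -0.73, limma adjusted p = 0.00537). Its share stayed near 89% in both groups, at 89.3% ± 3.4 in Hspa9 cKO and 89.5% ± 1.45 in WT (SD, n = 3 each). Mki67 has kept ends on both strands, as does Ccne2, so this share sets ends on opposite strands against each other. The main end of Ccne2, cyclin E2, had 4.36, 4.03 and 3.54 FPKM in Hspa9 cKO, against 6.74, 6.49 and 5.77 FPKM in WT (log2 change -0.56, limma adjusted p = 0.0319), a call lost in each of the 6 fits that leave out 1 library. The main end of Mcm6, a subunit of the replicative helicase, had 128, 134 and 116 FPKM in Hspa9 cKO, against 149, 167 and 156 FPKM in WT, and was not called in level (log2 change -0.32, limma adjusted p = 0.0522).

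Il2ra encodes CD25, the receptor chain by which DN3 cells were sorted, so its level cannot be read apart from the gate. Its distal end stood at 367, 362 and 369 FPKM in Hspa9 cKO, against 152, 153 and 142 FPKM in WT (log2 change 1.29, SE 0.05, limma adjusted p = 0.000427). The proximal end, far weaker, had 13.7, 4.21 and 13.6 FPKM in Hspa9 cKO and 6.29, 1.52 and 3.56 FPKM in WT, so the distal share was 97.2% ± 1.3 in Hspa9 cKO and 97.5% ± 1.49 in WT (SD, n = 3 each). Zbp1, an interferon-induced sensor of Z-form nucleic acid, was one of 4 genes with 2 ends called in level. Its distal end had 11.6, 10.4 and 11.0 FPKM in Hspa9 cKO, against 3.93, 4.96 and 5.83 FPKM in WT, and its proximal end 6.32, 6.86 and 6.12 FPKM in Hspa9 cKO, against 4.08, 3.45 and 4.66 FPKM in WT. The distal end rose by 1.03 (log2, limma adjusted p = 0.011) and the proximal end by 0.56 (limma adjusted p = 0.041), the proximal call being kept only without WT replicate 3 among the fits that leave out 1 library.

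In 3 further genes an end that is not the main one rose while the main end was not called. The rising ends of Prmt1 and Cd37 averaged under 2 FPKM in WT. They are members only through Hspa9 cKO, so their calls are given as a description. The proximal end of Prmt1, the main arginine methyltransferase of the cell, had 5.96, 6.80 and 8.78 FPKM in Hspa9 cKO, against 1.07, 1.30 and 1.77 FPKM in WT (log2 change 1.78, limma adjusted p = 0.00564). The distal end of Cd37, a tetraspanin of lymphocytes, had 3.75, 4.62 and 3.99 FPKM in Hspa9 cKO, against 0.249, 0.769 and 0.213 FPKM in WT (log2 change 1.88, limma adjusted p = 0.00587). The distal end of Ctse, which encodes the aspartic protease cathepsin E, had 15.3, 14.2 and 15.5 FPKM in Hspa9 cKO, against 6.61, 5.81 and 6.60 FPKM in WT (log2 change 1.13, limma adjusted p = 0.00218), while its proximal end was at 31.7, 31.4 and 31.8 FPKM in Hspa9 cKO and 27.8, 27.3 and 34.3 FPKM in WT. The limma adjusted p of the main end was 0.67 for Prmt1, 0.0689 for Cd37 and 0.6 for Ctse, and usage passed in none of the 3 genes. Cd37 as a whole was called higher in summed starts (log2 change 0.61, limma adjusted p = 0.014).

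Split by the type of annotated transcript, the calls went both ways. Of 371 tested ends in protein-coding last exons, 20 were called higher and 13 lower in level, and of all 378 such ends 18.0% had shares that did not overlap between groups. Of 122 tested ends in retained-intron last exons, 3 were called higher and 3 lower, and of all 131 such ends 9.92% had shares without overlap. Over all ends tested, 6.55% were called higher and 5.27% lower in level, and 12.4% had shares without overlap. The share of the retained-intron ends was 21.5% in the median in Hspa9 cKO and 21.5% in WT. Of 24 tested ends in last exons of transcripts marked for decay, 2 were called higher, those of Cdc26 and Vwce, and 1 lower, that of Vps11. The ends of Cdc26 and Vwce are members only through Hspa9 cKO, so their calls are a description. The median share of all 30 ends in such last exons was 18.8% in Hspa9 cKO and 21.1% in WT.

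The hexamers AATAAA and ATTAAA, searched on the transcript strand in the last 50 bases of annotated transcripts with a complete end, were found at 72.1% of distal kept ends and 40.0% of proximal ones. Over all listed ends with such a transcript the value was 58.3%, so the kept distal ends lie above it and the proximal ones under it. Ends of protein-coding transcripts held one in 74.1% and ends of retained-intron transcripts in 20.8%. The last 30 bases of the annotated transcripts are printed here for the called genes with junctions above, with a hexamer in capitals where there is one.
Cdc26 distal: ttcatgaaaattttatAATAAAcactaagt
Cdc26 proximal: ttttaaaAATAAAtttatttttggaaaaaa
Cdk5rap2 distal: tataATTAAAgtgtgcattgcaatataaaa
Eed distal: tgtaccatatctttttgtaatgtttacttt
Eed middle, chr7:89955974-89956413: tagaggaaaatcagcatggaaggtaaaata
Eed middle, chr7:89964594-89964862: gggcttacaAATAAAtggaaacccttattt
Eed proximal: aaatcaattctggatactgggttaacagta
1110051M20Rik distal: gctgtaaccgagacctagcttcatactgtg
1110051M20Rik proximal: ggtctccacaaAATAAAattcactaaggag
These runs do not follow the shares over all ends: both Cdc26 ends, the retained-intron end of Eed at chr7:89964594-89964862 and the 1110051M20Rik proximal end hold AATAAA, the Cdk5rap2 distal end holds ATTAAA, and the coding distal ends of Eed and 1110051M20Rik hold neither in this window. The Cdk5rap2 proximal end equals no annotated last exon, so it has no run here.

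Some end pairs join neighbouring genes under a single gene ID. At 120 of 836 kept ends the end does not overlap the annotated gene on its strand, and 77 of these start at an acceptor of another annotated gene. This touches the leading pair of 79 genes, of which 15 (19.0%) had an end without overlap between groups, against 61 of the other 303 genes (20.1%). Cd27, a costimulatory receptor of T cells, is one: its distal end is an acceptor of the neighbour Tapbpl and had 20.0, 18.2 and 20.7 FPKM in Hspa9 cKO, against 14.9, 14.9 and 14.1 FPKM in WT (log2 change 0.40, limma adjusted p = 0.0251). That call passed in 1 of the 6 fits that leave out 1 library. In such genes a share sets the ends of neighbouring genes against each other.

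Starts are listed in tables of their own, but they are no separate measurement of a gene's level. Of 363 member genes tested, 71 had summed starts within 1% of their summed ends in all 6 libraries, Cdc26 among them, and 173 in none. The summed starts were called in 44 of 363 member genes tested with limma, 24 higher and 20 lower in Hspa9 cKO. Of all 9104 genes tested, 14.0% were called, 8.39% as higher and 5.6% as lower. Start usage, tested in the same way as end usage, was called in 1 of 193 member genes, beside 0.27% of 5930 genes. That gene was Tnrc18, whose summed starts had 3.04, 5.94 and 4.66 FPKM in Hspa9 cKO, against 0.305, 0.151 and 0.230 FPKM in WT. None of the 5 genes called in end usage was called in start usage, and 2 of them, Cdc26 and Eed, were called in summed starts.

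The levels of factors that act on transcript ends were measured by their summed starts, for which 14.0% of all genes were called and 31.3% had an unadjusted p under 0.05. In the list of cleavage and polyadenylation factors 0 of 21 tested genes were called with limma, 4 had an unadjusted p under 0.05, and the median log2 change was -0.04, against 0.06 over all genes. Sympk, the scaffold of the cleavage complex and itself a member, came nearest the threshold, at 29.3, 30.5 and 30.6 FPKM in Hspa9 cKO and 36.3, 38.8 and 34.3 FPKM in WT (log2 change -0.27, limma adjusted p = 0.0652). Of 14 U1 and related factors that restrain intronic polyadenylation, 1 rose and 1 fell, a share near that of all genes. Zfc3h1, part of a nuclear RNA decay complex, had 14.5, 19.4 and 17.4 FPKM in Hspa9 cKO, against 10.5, 10.1 and 9.69 FPKM in WT (log2 change 0.70, limma adjusted p = 0.0168), and Snrpc, a U1 protein, fell by 0.44 (log2, limma adjusted p = 0.0432). Of 32 splicing regulators 3 fell and none rose: Mbnl3 by 1.71, Srsf3 by 0.47 and U2af1 by 0.52 (log2, limma adjusted p = 0.00432, 0.0424 and 0.0413). Leaving out 1 library left 0 to 2 calls in the U1 list, with none without Hspa9 cKO replicate 3 or WT replicate 3, and 1 or 2 in the splicing list.

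Calls in wider gene lists are counted here beside the 8.39% of all genes called higher and 5.6% called lower in summed starts. Of the interferon response list 20 of 26 genes were higher and none lower in summed starts, with Zbp1 its single member here. Of the cell cycle list 23 of 34 genes were lower and none higher, with Mki67, Top2a, Mcm6 and Ccne2 as members. T cell genes were called higher in 10 and lower in 2 of 38 (members Il2ra, Tcf7, Lat, Cd27 and Themis), stress response genes higher in 9 and lower in 0 of 15, and mitochondrial chaperone and import genes lower in 5 and higher in 0 of 18 (members Timm44 and Tomm40). None of the member genes on the 8 lists was called in end usage. Whether these levels bear on the use of ends was not tested.

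The libraries listed 12593, 12708 and 12652 ends in Hspa9 cKO and 12405, 12300 and 12098 in WT, and Pearson's r of log2(FPKM + 1) over 7730 ends was 0.924 to 0.932 within groups and 0.898 to 0.911 across them. The FPKM tables give no counts, so the depth behind a value is unknown. The Hspa9 labels were checked by events that skip several of its exons together, taken to be exons 2 to 4. The form with these exons held 21.3%, 13.6% and 22.9% of their FPKM in Hspa9 cKO and 100%, 89.9% and 86.1% in WT. The skipped form was thus also listed in WT replicates 2 and 3, at 12.3 and 16.95 FPKM. Hspa9 has 2 listed ends, of which only 1 reached 2 FPKM, so it is no member. Of 14 DN3 markers 13 were listed, with a summed level of 2220 to 2594 FPKM in Hspa9 cKO and 1771 to 2532 FPKM in WT. The overlap of these sums does not mean that the single markers were alike. In summed starts Il2ra, Ptcra, Rag2, Cd3d, Notch1, Notch3 and Dtx1 were called higher in Hspa9 cKO and Tcf7 lower. Rag1, Cd3e, Hes1, Bcl11b and Thy1 were not called, and Thy1 alone ranged from 456 to 963 FPKM in WT. Markers of later thymocytes (6 of 6 listed) summed to 10.9 to 13.5 FPKM in Hspa9 cKO and 17.4 to 20.4 FPKM in WT, those of B cells to 15.3 to 18.3 FPKM in Hspa9 cKO and 9.76 to 12.6 FPKM in WT with Cd79b alone listed of 5, and those of thymic epithelium to 36.7 to 43.0 FPKM in Hspa9 cKO and 27.2 to 29.1 FPKM in WT, with 1 of 3 listed, Psmb11 and Foxn1 being unlisted. The sums of the other lists overlapped or were near 0. Earlier progenitor markers summed to 6.59 to 8.575 FPKM in Hspa9 cKO and 7.22 to 8.97 FPKM in WT. Myeloid markers summed to 13.5 to 15.5 FPKM in Hspa9 cKO and 8.93 to 15.3 FPKM in WT. NK and innate lymphoid markers summed to 0.819 to 1.26 FPKM in Hspa9 cKO and 0.82 to 1.83 FPKM in WT. Dendritic and erythroid markers reached at most 0.19 FPKM in any library. The part of these cell types in the end values was not tested.

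At the 2 FPKM line the choice of members was close for some ends. Just inside lay ends of Pxmp4, Wls and Rps3, with means of 2.01, 2.03 and 2.03 FPKM, and just outside ends of Setdb2, Mbd6 and Rbl1, each with a mean of 1.999 FPKM. The Pxmp4 end had 1.25, 1.42 and 0.96 FPKM in Hspa9 cKO and 0.756, 0 and 7.66 FPKM in WT, so that WT replicate 3 alone brought it in.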

How the data were processed

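RNA was enriched for messenger RNA, by poly(A) capture or by depletion of rRNA, before random priming, per the labels' protocols, which do not say which of these was used. Trimming was with cutadapt 1.9.1 and the build was mm10, per the submitters' processing notes; aligner, assembler, event caller and strand setting were not stated there. The authors' deposited values are FPKM per transcript event, per the file headers. An unlisted event was set to 0. Ends were placed on GENCODE M21, which holds all 10797 gene IDs. Usage was fitted on log2((end + 1)/(rest + 1)) for genes with at least 1 FPKM in 3 libraries and ends with a mean of at least 0.1 FPKM; levels and summed starts on log2(FPKM + 1), for features at 1 FPKM in at least 3 libraries, which understates folds of low values. All fits used limma 3.58.1 (R 4.3.3), robust with trended variances, two-sided, adjusted by the Benjamini-Hochberg method over the whole table. On simulated shifts of 1, 2, 3 and 4 (log2) in end usage, over 4822 ends, 14%, 48%, 70% and 74% of the shifted ends were recovered, and 8 of 111 calls were false.

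Members, gene lists and tests were chosen with earlier results of these data known. Genes were named where the leading ends lie in the annotated gene: the called ones with shares apart, then further ones with shares apart by the size of the difference, up to 24, and the ends nearest the 2 FPKM line. Genes named beyond this rule (Dynlt1b, Cap1, and the genes of the level, start and list results) were chosen after their values were seen. Alternatives covered the pseudocount, filters, scaling, treatment of unlisted events, membership, a replicate block and each library left out.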

Additional observations from a re-analysis of the deposited data

How the results depend on the processing

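The number of member genes called in end usage, 5, depended on the libraries: it was 0 to 5 with 1 library left out, 0 with a replicate block, 2 with members at a mean of 5 FPKM or more and 0 for genes with 2 or more ends at 2 FPKM in each group, an alternative chosen after seeing the data. Each other alternative gave 4 or 5. It was 0 without WT replicate 1 or WT replicate 2 and 1 without Hspa9 cKO replicate 2. It was 2 without Hspa9 cKO replicate 1 and 4 without Hspa9 cKO replicate 3. These counts do not always stand for the ends described above. Without Hspa9 cKO replicate 3 those of Cdk5rap2, Eed, 1110051M20Rik and Dynlt1b did not pass (limma adjusted p = 0.0933 to 0.146). Without WT replicate 3 those of Cdk5rap2 and Eed did not pass (limma adjusted p = 0.0632 for each). The counts thus include other ends of these genes or other member genes. The direction of usage of all 25 genes followed was kept in every alternative that could be run. The 51 ends called in level became 27 to 45 with 1 library left out and 14 with the replicate block. The 44 member genes called in summed starts became 21 to 31 with 1 library left out (fewest without Hspa9 cKO replicate 3) and 11 with the block. Nothing in the labels says that equal replicate numbers pair the samples. Same-numbered libraries had correlations of their deviations between -0.06 and 0.03 over all ends tested. This cannot exclude a shared litter or batch that touches part of the ends. The 125 ends whose shares do not overlap were 54 with members at 5 FPKM or more, where fewer ends are members, and 95 with both groups at 2 FPKM. The median change in distal share lay between -0.313 and 0.118 percentage points with 1 library left out, against 0.216 with all 6. In the cleavage list 1 gene was called after rescaling by trimmed means, from summed ends or without Hspa9 cKO replicate 1. Without read counts, the precision of a low FPKM cannot be given.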
